A study of Arabidopsis thaliana with 4 samples.

Results

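Histone H3 trimethylated at lysine 4 (H3K4me3) was profiled by chromatin immunoprecipitation and array hybridisation (ChIP-chip), and the subject here is the set of array tiles with the lowest log ratios outside 2 long low ranges of plates. In the searched plates, 498 of 17357 tiles (2.87%) had a value of -1 or less, out of 21691 tiles with a value on the array, where 1229 (5.67%) were that low. The value of a tile was its log ratio in each ChIP replicate minus that replicate's median over all tiles with a value, averaged over both replicates, and is given in log units. The search covered sets TA, TB and TC of the tile IDs, without plates TA21 to TA51 and TC17 to TC30, which left 182 plates. Because the tiles were chosen on these values, their low level is a description, and no test of it is given.

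The material was whole 10-day-old seedlings of the Arabidopsis thaliana accession Col-0, grown in liquid medium without treatment, so each ratio averages over all the cell types of a seedling. Chromatin precipitated with an antibody against H3K4me3 (IP) was compared with the input chromatin of the same ChIP replicate, I or II, and each replicate was hybridised on a pair of arrays with the dyes swapped. The arrays of a pair held equal values for every tile, which left n = 2, and nothing in the labels states that I and II came from separate cultures. There is no second genotype, treatment or time, so the comparisons are between tiles and between replicates. A ratio that differs because more or fewer cells carry the mark and one that differs because each cell carries more or less of it cannot be told apart.

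H3K4me3 is written by Trithorax-type methyltransferases and lies over the 5′ part of transcribed genes in plants. Intergenic sequence, the 3′ part of genes, transposons and silent genes usually carry little of it. A tile with little of the mark may therefore lie close to a marked gene start or far from any. The positions and sequences of the tiles were not used here, and tiles are given by ID. An ID such as TA58G10 names the set (TA), the plate (58), the row (G) and the column (10), and ID order is the order along rows and then plates. Whether neighbours in ID order are also neighbours on a chromosome is not given in the sources used here. Runs and distances therefore describe the ID order alone. The direction of the deposited ratios is not given in the sources used here. Low tiles are poor in H3K4me3 if the ratios are IP over input, and rich in it if they are the inverse, so the text says low and high only and gives the distance between them in tiles.

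Most of the 498 low tiles lay just under the limit. Their values had a median of -1.14, with quartiles of -1.27 and -1.06, and 180 (36.1%) were at -1.2 or less, 31 (6.22%) at -1.5 or less and 2 at -2 or less. The SD of the difference between replicates over these tiles was 0.48, which corresponds to a standard error of 0.24 for a tile mean. Of the 498, 353 (70.9%) lay within that error of the limit and 462 (92.8%) within 2 such errors, while 36 (7.23%) were further below. Just inside it were TB23D06 at -1.000106, TB15F03 at -1.000106 and TB15A08 at -1.000249, and just outside were TA54D08 at -0.999548, TB18H01 at -0.999007 and TA19D01 at -0.998881. The number therefore moves strongly with the place of 0. It was 181 when each replicate was centred on the mode of its values, which lay at -0.22 from the median in I and -0.17 in II, and 941 when centred on the median of the searched plates alone.

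The lowest value belonged to TA56G11, with -2.81 in replicate I and -2.11 in replicate II (mean -2.46 ± 0.49, SD, n = 2). It stood alone, with 0.37 on the tile before it and -0.69 on the tile after. TA06C05 followed with -2.67 in I and -2.19 in II (mean -2.43 ± 0.34), and it ended a run of 3 low tiles in which TA06C04 had -2.33 and -1.48. The tile before that run was high at 2.37. TA77A12 was alone at -1.53 and -2.43, between tiles at -0.45 and -0.36. Of the 10 lowest tiles, 3 were alone and 7 belonged to runs, among them TA58H04 (-1.73 and -2.13), TA53H07 (-1.79 and -1.96), TA52A12 (-1.65 and -2.02), TA99D01 (-1.499 and -2.08) and TB94B09 (-2.37 and -1.07). The last place went to TA53B01, alone at -1.97 and -1.40. In 5 of these 10 tiles replicate I was the lower and in 5 replicate II.

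Replicate II was the lower for most low tiles. It was below replicate I at 406 of 498 (81.5%), against 9680 of all 17357 searched tiles (55.8%). The median over low tiles was -0.98 in I, with a range from -2.81 to -0.35, and -1.35 in II, with a range from -2.43 to -0.29. The lower tail of II was also the wider over all searched tiles, with a 5th percentile of -1.07 against -0.81 in I. All 498 low tiles were below 0 in both replicates, as were 5762 of all searched tiles (33.2%). The limit of -1 itself was met in both replicates by 187 low tiles (37.5% of them, 1.08% of the searched tiles), in II alone by 265 (53.2%) and in I alone by 46 (9.24%). Each replicate helped to choose the tiles, so these counts describe the choice.

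Each replicate was also read at tiles picked on the other one alone. Replicate I was at -1 or less at 372 searched tiles (2.14%), and at these tiles replicate II had a median of -1.001, with quartiles of -1.37 and -0.67. Of the 372, 344 (92.5%) were below 0 in II and 187 (50.3%) were at -1 or less, where 6.34% of all searched tiles were. Replicate II was at -1 or less at 1100 tiles, and at these replicate I had a median of -0.67, with quartiles of -0.90 and -0.47. Of the 1100, 1070 (97.3%) were below 0 in I and 187 (17%) were at -1 or less, where 2.14% of all searched tiles were. A tile low in one replicate was thus nearly always below the median in the other, but often did not reach the same depth. Over all searched tiles the median was 0.15 in I and 0.14 in II, with lower quartiles of -0.32 and -0.40. Most searched tiles were therefore above 0 in each replicate. The lists of lowest tiles overlapped in part. When the 498 lowest tiles of each replicate were listed, 160 (32.1% of either list) were shared. Each list is 2.87% of the searched tiles, the share expected in the other list if the 2 were unrelated. The 498 highest tiles of each replicate shared 326 (65.5%). The high tail spans a wider range, with 95th percentiles of 2.60 in I and 2.81 in II against 5th percentiles of -0.81 and -1.07. These shares carry no test.

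**Figure D1:**
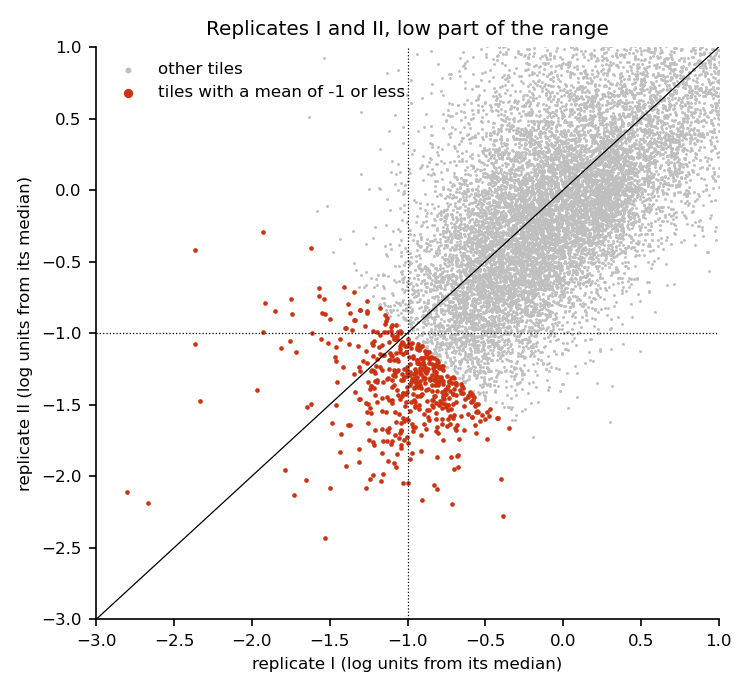
Each point is a searched tile, with replicate I on the x axis and replicate II on the y axis, both as log ratios in log units from the replicate's median over the array; axes end at -3 and 1. Red tiles have a mean of -1 or less, the dotted lines mark -1 in each replicate, and the solid line marks equal values; 406 of the 498 red tiles lie below that line.

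At some low tiles the replicates differed strongly. TA58A11 had the largest difference, with -2.37 in replicate I and -0.42 in replicate II. TA63E08 had the opposite pattern, at -0.39 and -2.28. TA88E02 read -1.93 in I and -0.29 in II, TA16D10 read -0.40 and -2.02, and TB55G10 read -0.71 and -2.20. In all, the replicates differed by 1 log unit or more at 36 of the 498 (7.23%), close to the 1119 of 17357 searched tiles (6.45%), and II was the lower at 30 of the 36.

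Low tiles lay near each other in the ID order. The 498 formed 365 runs of consecutive low tiles, and 214 (43.0%) had a low tile directly before or after them. Of the runs, 284 held a single tile, 52 held 2, 19 held 3 and 10 held 4 or more. The nearest other low tile was at a median distance of 2 tiles, and 365 low tiles (73.3%) had another within 10 tiles. For the 16859 other searched tiles the median distance to a low tile was 22. Of these, 690 (4.09%) had a low tile directly beside them and 4822 (28.6%) had one within 10. Wells without a value touched 5 low tiles, and no run crossed a plate end. Runs share values with the rule, so their number is given without a test. The share in runs was 26.7% when both replicates had to be at -1 or less, and ran from 33.7% to 57.5% over the other alternatives tried.

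The longest run, TA58G10 to TA58H06, held 9 tiles with values from -1.93 to -1.04. Replicate I averaged -1.30 over these tiles and replicate II -1.34, and 6 of the 9 were at -1 or less in both. It lay between high tiles. TA58G05, 5 tiles before its start, read 3.83, and TA58H08, the second tile after its end, read 1.78. Run TA69E09 to TA69F03 held 7 tiles and had the same shape, a trough between TA69E06 at 2.09 and TA69F06 at 1.84, with intermediate tiles of 0.25, -0.48, -0.58 and 0.36 on its slopes. Its means were -0.99 in I and -1.47 in II.

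The other long runs differed in their surroundings. TA19D07 to TA19D12 held 6 tiles (-1.15 in I and -1.70 in II), followed a stretch in which the preceding 6 tiles with a value lay between -1.06 and -0.92, and ended abruptly, from -1.49 at TA19D12 to 0.19 at TA19E01. TC03C07 to TC03C11 held 5 tiles (-0.97 in I and -1.75 in II), and TB55G03 to TB55G07 held 5 (-0.97 in I and -1.65 in II). In both of these replicate II was the lower at every tile. TB01E03 to TB01E07, with 5 tiles at -1.11 in I and -1.17 in II, had its nearest high tile 18 tiles away.

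**Figure D2:**
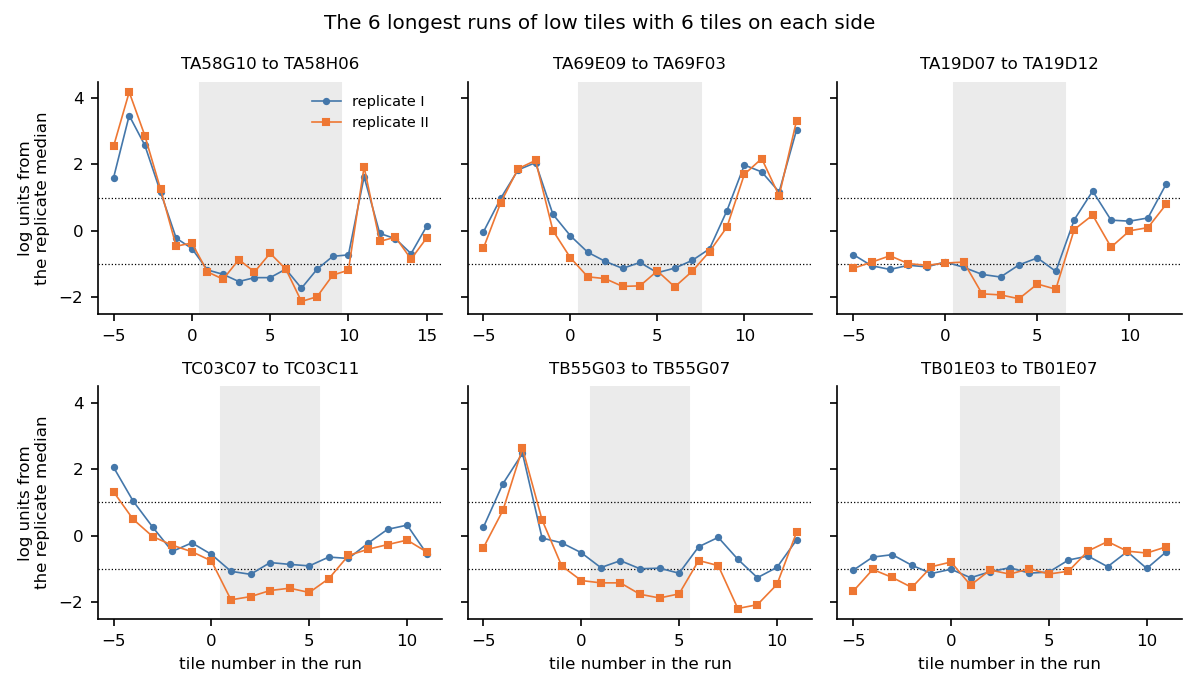
Log ratio in log units from the replicate median (y axis) along the ID order (x axis, tile 1 is the first of the run) for the 6 longest runs of low tiles, with 6 tiles on each side; blue circles are replicate I, orange squares replicate II, grey bands the run, and dotted lines -1 and 1. TA58G10 to TA58H06 and TA69E09 to TA69F03 lie between high tiles in both replicates, and TB01E03 to TB01E07 lies in a stretch without any.

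Tiles beside a low run were mostly below the median. The 690 tiles directly next to a run had a median of -0.55, against 0.19 for the 16169 that were neither low nor next to a low tile. Of the 690, 592 (85.8%) were below 0, against 6324 of the 16169 (39.1%), and 167 (24.2%) lay at -0.8 or less, against 509 (3.15%). Lone low tiles also mostly lay among tiles below the median. Of the 284 lone low tiles, 207 (72.9%) had both neighbours below 0, 105 (37.0%) had a neighbour at -0.8 or less, and 7 (2.46%) had both neighbours above 0. The shares of other searched tiles with such neighbours are not given, so these counts describe the lone low tiles alone. The median was -0.54 at 1 tile from a lone low tile, -0.35 at 2, -0.26 at 3 and -0.08 at 5. Around low tiles in runs it was -1.06, -0.76, -0.58 and -0.33 at the same distances. That contrast is fixed in part by the definition, since 62.1% of the tiles directly beside a low tile in a run were low themselves, and none beside a lone one could be.

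The dip was also present in the replicate that had not picked the tile. Around tiles at -1 or less in replicate I, the median in replicate II was -0.64 at 1 tile, -0.45 at 2, -0.34 at 3, -0.22 at 5 and -0.13 at 10, and at 20 tiles it had come to 0.01. Around tiles at -1 or less in replicate II, the median in replicate I was -0.48, -0.33, -0.21, -0.07 and -0.03 at those distances, and 0.03 at 20. The median of all searched tiles was 0.14 in II and 0.15 in I.

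**Figure D3:**
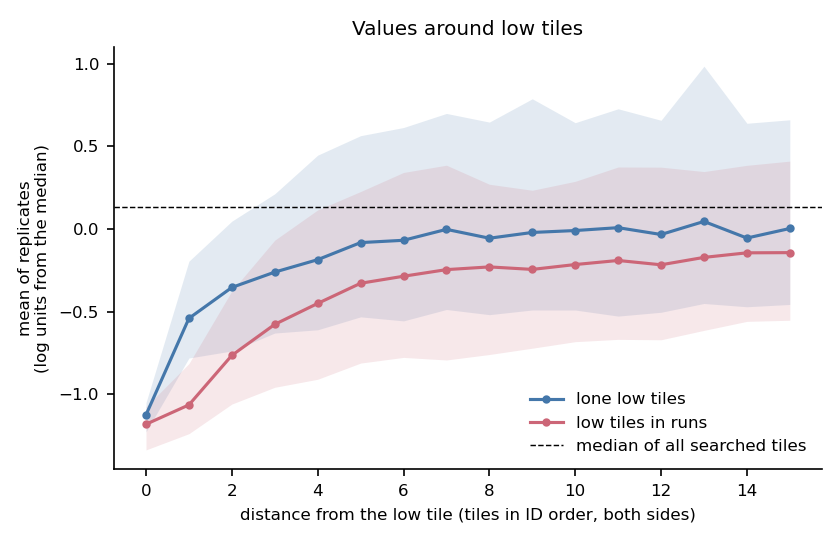
Median of the mean of both replicates (y axis, log units from the median) by distance in tiles from a low tile, both sides together (x axis), for lone low tiles in blue and low tiles in runs in red; shaded bands span the quartiles, and the dashed line marks the median of all searched tiles, 0.13. The blue line climbs from -1.12 at distance 0 to -0.08 at 5 tiles, and the red line from -1.18 to -0.33.

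Low tiles were seldom next to high ones. A high tile, one at 1 or more, was found at 4439 of the searched tiles (25.6%), and the nearest was at a median distance of 6 tiles from a low tile, with quartiles of 3.25 and 11. The median was 4 for the 2443 tiles over -1 to -0.5, 3 for the 4473 over -0.5 to 0 and 2 for the 5504 over 0 to below 1. A high tile was directly adjacent to 14 low tiles (2.81%). It was adjacent to 5.81% of the tiles over -1 to -0.5, to 16.7% of those over -0.5 to 0 and to 46.1% of those over 0 to below 1. At exactly 2 tiles it was found for 43 low tiles (8.63%), against 17.5% of the tiles over -1 to -0.5 and 19.3% of all other tiles below 1. At exactly 3 it was found for 68 (13.7%), against 16.8% and 12.5%, so the low tiles lay between these shares there. Neighbouring tiles have similar values, so part of the order of the classes in median distance and adjacency comes from the values that define them. That order is not tested. Within 5 tiles, 232 low tiles (46.6%) had a high one, against 74.7% of the 12420 other tiles below 1. No high tile lay within 10 tiles for 131 low tiles (26.3%), against 9.52% of those other tiles and 16.9% of the tiles over -1 to -0.5.

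**Figure D4:**
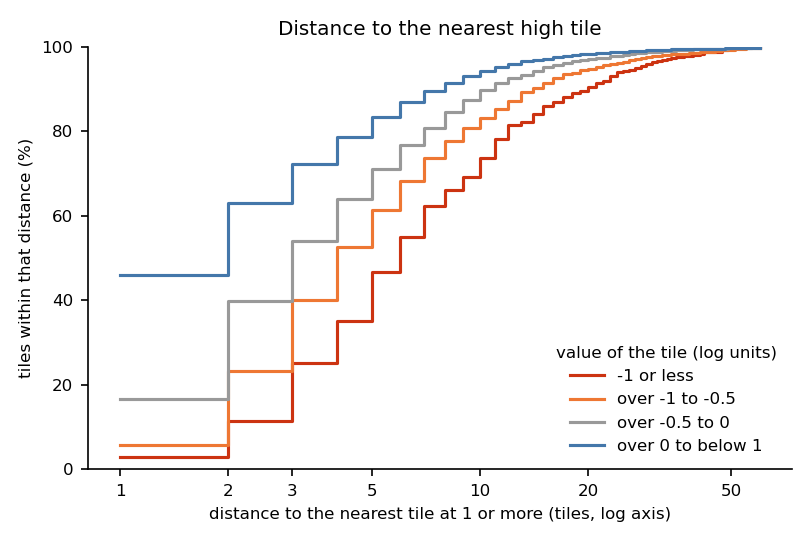
Share of tiles (y axis, percent) with a high tile within a given distance (x axis, tiles in ID order, log axis), for 4 classes of tile value. Up to a distance of 41 tiles the red line of the low tiles runs lowest. In it 46.6% have a high tile within 5 tiles, against 61.5% of tiles over -1 to -0.5, 71.2% of those over -0.5 to 0 and 83.4% of those over 0 to below 1.

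The 14 low tiles that touched a high one stepped to it by 2.07 to 4.53 log units. TB19G08 (-1.43 in I and -1.71 in II) was followed by a tile at 2.96, a step of 4.53. TA55C01 (-1.27 and -0.95) followed a tile at 2.71, and TA06C03 (-1.75 and -1.05) followed one at 2.37. TB84B01 (-1.61 and -1.0005) lay between tiles at 2.39 and 2.04, the only one of the 14 with a high tile on both sides. TA58A11, the tile with the largest replicate difference, was followed by 2.29. Of the 14, 12 were lone low tiles.

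At the other end, TA97C10 (-0.84 in I and -1.41 in II) was 52 tiles from the nearest high tile, the largest distance among the low tiles. It was also 34 tiles from the nearest other low tile, and plate TA97 held 0 high tiles among its 96. TA57C11, TA57C12 and TA57D01 formed a run at 50, 49 and 48 tiles from a high tile, with means of -1.06, -1.01 and -1.27. TA52A04 (-1.43 and -1.83) and TA97G02 (-0.63 and -1.46) were both at 47 tiles. Plate TA52 borders the excluded plates, which were not searched for high tiles, so its distances are upper limits.

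The plates held unequal shares of the low tiles. Of the 182 plates, 35 had none and 60 had 1, while 24 plates together held 252 of the 498. Plates TA57 and TA58 had 21 low tiles each, of 96 tiles with a value (21.9%), TA53 had 17, TA84 had 14, and TA59 and TA95 had 13 each. By block, low tiles were 261 of 4593 (5.68%) in TA52 to TA99, 64 of 1901 (3.37%) in TA01 to TA20, 153 of 9581 (1.60%) in TB and 20 of 1282 (1.56%) in TC00 to TC13. High tiles ran from 16.8% in TA52 to TA99 and 26.9% in TA01 to TA20 to 28.5% in TB and 33.5% in TC00 to TC13, the reverse order. Within the blocks low tiles had similar depth, with medians from -1.205 to -1.14.

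Plates TA52 to TA63, which directly follow an excluded low stretch and were singled out after their values were seen, held 123 of the 498 low tiles (24.7%) in 12 plates. There 10.7% of tiles were low and 10.4% high. The low tiles of these plates were at a median of 11 tiles from a high one and 58 of 123 (47.2%) were at -1 or less in both replicates. Without these plates 375 low tiles were left, of which 37.1% were in runs, at a median of 5 tiles from a high tile. Low plates, whose median was under -0.3 in both replicates, numbered 9 and held 125 low tiles among 863 tiles (14.5%). The same values define these plates, which by itself raises their share of low tiles. Outside them 373 of 16494 tiles (2.26%) were low.

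**Figure D5:**
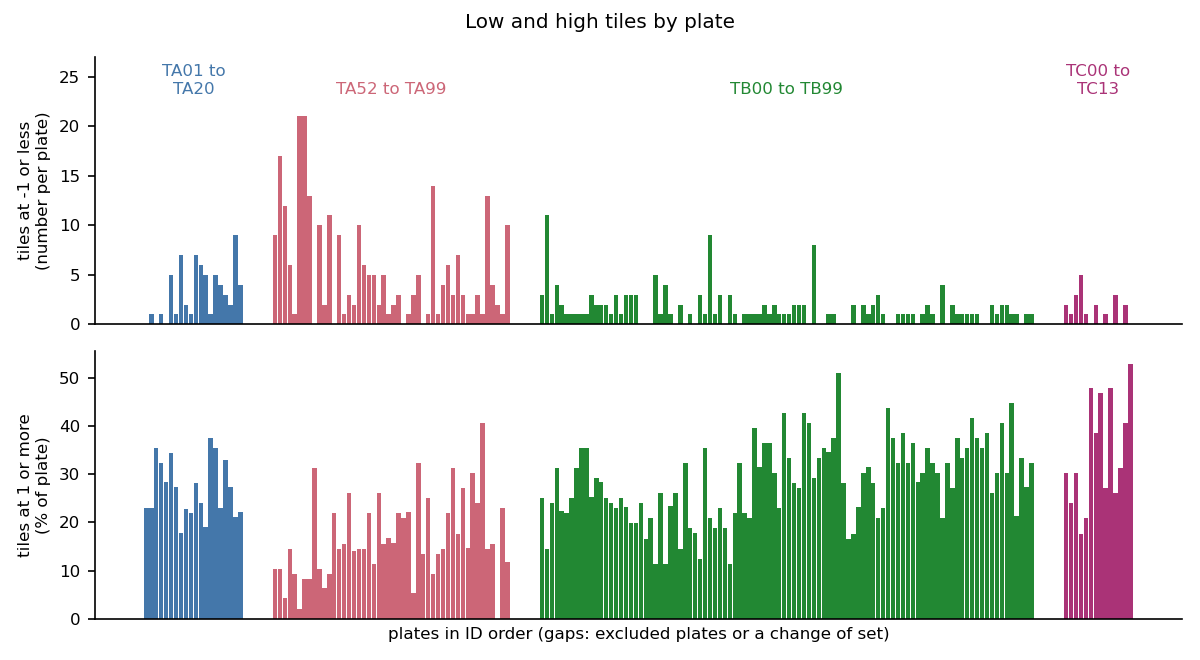
Number of low tiles per plate (upper panel) and share of high tiles per plate in percent (lower panel), with plates in ID order and coloured by block; gaps mark excluded plates or a change of set. The tallest bars of the upper panel are TA57 and TA58 with 21 low tiles each, where high tiles make up 2.08% and 8.33% of the plate.

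Replicate II depended on the odd or even place of a well more than the mean of the replicates did. Low tiles were 2.88% of wells in odd rows and even columns, 2.81% in odd rows and odd columns, 2.88% in even rows and even columns and 2.91% in even rows and odd columns. Replicate II alone was at -1 or less in 6.12%, 5.14%, 7.30% and 6.79% of these wells, and replicate I in 2.23%, 2.37%, 1.98% and 1.99%. By row the share of low tiles ran from 2.53% in row G to 3.14% in row F, and by column from 2.36% in column 3 to 3.79% in column 6. Edge wells held 2.90% low tiles and inner wells 2.85%. In plates TA01 to TA10, where the plate medians of replicate II alternate, 15 of the 18 low tiles were on even plates and 3 on odd ones. The median of all tiles there was -0.06 in II on even plates and 0.60 on odd ones, against 0.25 and 0.07 in I. The part of this offset in those low tiles was not tested.

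In the 4 excluded ranges of plates 50% to 57.4% of the low tiles were in runs, against 43.0% in the searched plates. The median distances of these low tiles to high tiles, counted within each range, were 14 to 97 tiles, against 6. The ranges also held more low tiles (8.76% to 24.1%, against 2.87%) and fewer high tiles (0.712% to 14.2%, against 25.6%). The share in runs and the distance both depend on these shares, and the contrasts were not adjusted for them. In plates TA39 to TA51, 287 of 1192 tiles (24.1%) were at -1 or less, 56.8% of them in runs, at a median of 48 tiles from the nearest high tile within those plates. In TC17 to TC30 the corresponding values were 223 of 1124 (19.8%), 57.4% and 97 tiles, and in TA21 to TA29 they were 143 of 785 (18.2%), 52.4% and 18 tiles. TA30 to TA38, which lie between low stretches, had 72 of 822 (8.76%), 50% and 14 tiles, with 14.2% of tiles high. That share of low tiles was under the 10.7% of TA52 to TA63. The limit was met in both replicates by 55.2% to 60.1% of the low tiles of the 4 ranges and by 37.5% in the searched plates. The medians of the low tiles ran from -1.18 to -1.13 in these ranges, against -1.14, and the longest runs were 6 or 7 tiles, against 9. The longest run also depends on the number of tiles, 785 to 1192 in a range and 17357 in the searched plates. The ranges were drawn with these values in view, so the contrasts carry no test.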

How the data were processed

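The log2 ratios of IP and input, one per array and tile, were made by the authors and used as deposited. Their log base, centring and direction, and how the authors normalised them, are not stated in the labels or the table, so log2 is an assumption. Scanner intensities, and with them signal over background, were not used. Of 21800 probes, 109 had no value. All 4 sample columns were used. The arrays of a dye-swap pair were averaged to 1 value per ChIP replicate (n = 2), and the median over the 21691 tiles (-1.91 in I and -0.90 in II as deposited) was subtracted from each replicate. Low was -1 or less and high 1 or more on the mean of both replicates. Tiles without a value were dropped, IDs were sorted, and runs and distances were counted in tiles and ended at a change of set and at the excluded plates. The number of replicates limits the precision. The scripts for runs and distances were tested on simulated data with planted runs. Python 3.11.15, pandas 2.3.3, numpy 2.4.6 and scipy 1.17.1 were used.

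The tiles, limits and ranges of plates were chosen with earlier results of these data known. The tiles named are the 10 lowest, the 6 longest runs, the 6 plates with most low tiles, the 5 largest replicate differences, the 5 largest steps to an adjacent high tile, the 5 tiles farthest from a high one (and TA97G02, tied with the last), and the 3 on either side of the limit, besides neighbours of these. Alternatives changed the centring, limits, scale, plate level, replicates used, and the treatment of empty wells, plate ends and low plates. Removal of well parity medians and omission of plates TA01 to TA10 or TA52 to TA63 were added after seeing the data.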

Additional observations from a re-analysis of the deposited data

Results flagged for a closer look

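Set PD, which lies outside the sets searched, held 5 of 315 tiles with a value at -1 or less (1.587%), and set TD held 1 of 96 (1.04%). Both shares are under the 2.87% of the searched plates and the 5.67% of all tiles with a value. PD is listed only because its share is more than the 0.952% that a count of 0 allows, which any count over 3 would be, so nothing is read from it. What the letters PD and TD stand for is not given in the sources used here.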

How the results depend on the processing

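The number of low tiles, 498, became 181 with centring on the mode, 941 with centring on the searched plates, 1174 at a limit of -0.8, 180 at -1.2, 917 with plate medians removed, 187 with the limit in both replicates, and 372 to 1100 on a single replicate. These follow from the construction, since each moves the limit or the values against it. The share in runs, 43.0%, became 33.7% (mode), 53.8% (searched plates), 57.5% (-0.8), 33.9% (-1.2), 53.2% (plate medians removed), 26.7% (both replicates), 37.3% (without low plates), 37.1% (without TA52 to TA63) and 37.6 to 53.0% on a single replicate. The median distance to a high tile, 6, became 5 with the mode, at -0.8, with high tiles at 0.5 or more, without low plates, without TA52 to TA63 and on either single replicate, 4 with plate medians removed, and 7 with both replicates or with high tiles at 1.5 or more. The share low in both replicates, 37.5%, became 25.4% (mode), 43.0% (searched plates), 46.3% (-0.8), 30% (-1.2), 43.8% (replicates scaled to one SD) and 44.6% (plate medians removed). The smallest number of plates that holds at least as many low tiles as all the others, 24, became 39 with plate medians removed and 24 to 38 on a single replicate. The causes of the shifts in shares and distances were not tested. For these results and the SD of the replicate difference, the other alternatives stayed within 1.5 times a count or SD or inside the interval of a share or distance. The interval of a share is a 95% binomial interval that treats tiles as independent, although neighbouring tiles have similar values. That of the distance had no width, because both single replicates gave 5, so only a distance of 6 lay inside it. Neither interval measures the spread between replicates. No paired analysis was possible because the design has a single group. With 2 values per tile, a tile within 0.24 of the limit, 1 standard error, cannot be placed reliably on either side. Within 2 such errors lay 462 of the 498 low tiles (92.8%). The error also leaves out the mean difference of 0.36 between I and II over the low tiles.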
